A study of Mus musculus with 23 samples.

Results

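OT-I cells are CD8 T cells with a transgenic receptor for an ovalbumin (OVA) peptide. The results below compare OT-I cells of mice that received a higher dose of free OVA with OT-I cells of mice that received saline. The comparison was chosen by its labels and rests on 6 of the 23 libraries of the series, 3 with higher-dose OVA and 3 with saline. All recipients were C57BL/6 mice, given OT-I and OT-II cells by adoptive transfer and treated 1 day later. OT-II cells are the CD4 counterparts with a receptor for another OVA peptide, so every group, saline included, carried both transferred populations. The other OT-I groups received 1 ug of A8B1-OVA or free OVA in the molar equivalent of that amount, and each has 3 libraries. The sources used here do not say what A8B1 is, and the sample titles mark the free OVA groups with 0.5 and 5 but name no unit. Cells were sorted 5 days after transfer from spleens combined with lymph nodes. Each library holds RNA of 3 mice mixed before cDNA synthesis, so an animal's own value cannot be read from it. No age or sex of the mice is stated.

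A CD8 T cell that meets its peptide on an antigen-presenting cell divides and can become an effector cell, with granzymes, NK-type receptors and receptors for inflamed tissue. Antigen met without inflammation more often leaves it with inhibitory receptors and a poor response to later antigen, a state called anergy or tolerance. The series title concerns T cell anergy after targeting of erythrocytes, and free OVA was one of its treatments. The comparison with saline asks which RNAs of CD8 cells differed after soluble antigen.

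The 6 libraries held 33.5 M to 34.3 M counts with higher-dose OVA and 53.9 M to 68.2 M with saline, so depth did not overlap between the groups. A count of 0 allows at most 0.0874 to 0.0895 CPM in the first group and 0.044 to 0.0557 in the second (3 counts of the total, counting error only). Here CPM is a gene's count scaled by its library's total and TMM factor, which compares a gene between libraries and not genes with each other. In a principal component analysis of all 12 OT-I samples, component 1 carried 28.1% of the variance and placed the higher-dose libraries at 5.2, -22.5 and -8.1, between saline (26.8 to 37.3) and A8B1-OVA (-68.1 to -35.6). Cd8a, which encodes one CD8 chain, ran from 768 to 1120 CPM in the 6 libraries. That level does not show that a library was free of other T cells. Nothing in the labels says that the replicates were run separately beyond the pools of 3 mice. The p-values therefore rest on the spread between pools within groups, estimated over all 12 OT-I libraries and not these 6 alone.

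Higher-dose OVA replicate 1 stood apart in genes of CD4 T cells. Cd4, the co-receptor gene that CD8 T cells lack, was at 160 CPM in it, against 0.334 and 1.76 in replicates 2 and 3 and 1.05 to 2.12 in saline. Zbtb7b, the factor that directs the CD4 lineage, was at 34.4 against 2.70 and 1.94. The 9 genes of the CD4 lineage list summed (before TMM scaling, as all list sums here) to 496 CPM in replicate 1, to 171 and 247 in the other higher-dose libraries, to 104 to 115 in saline and to 1140 to 1410 in the OT-II libraries. In the same library Cd8a (768 CPM) and Cd8b1 (1560) were below all 5 others (1030 to 1120 and 2130 to 2300). Saline replicate 1 had raised markers of other cells: its B cell list summed to 773 CPM against 250 to 395 in the other 5 libraries, and its myeloid list to 708 against 313 to 435. The counts of gene lists that differ without higher-dose replicate 1 are given in both forms.

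**Figure D1:**
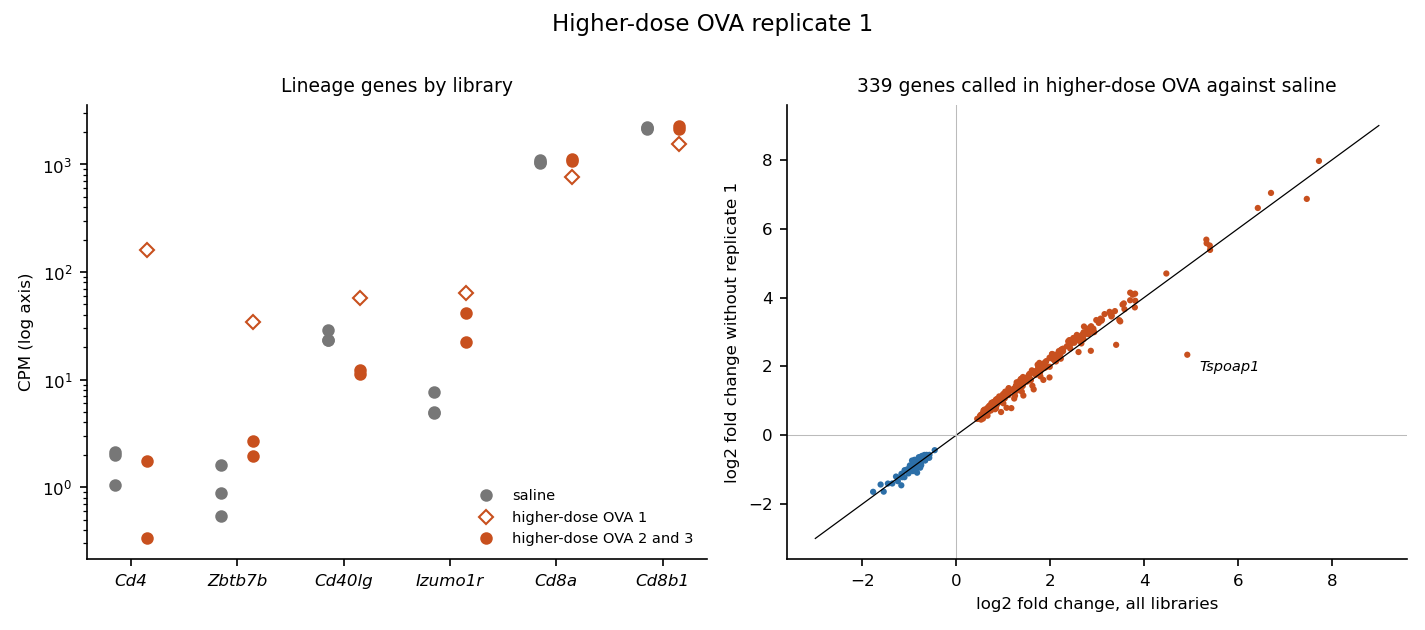
Left, CPM (log axis) of 6 lineage genes in the 3 saline and 3 higher-dose OVA libraries, with higher-dose replicate 1 as an open diamond: Cd4 is at 160 CPM in that library and under 3 in the other 5. Right, log2 fold change over saline of the 339 called genes in all libraries (horizontal) and without that replicate (vertical), with the line of equality. All 339 keep their direction, which their lack of overlap between the groups made all but certain. Tspoap1 moves most in proportion.

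Of 14080 genes tested, 339 differed between higher-dose OVA and saline at an adjusted p under 0.05 (2.41%). Of these, 277 were higher with OVA (1.97% of the genes tested) and 62 lower (0.44%). Over 2-fold were 200 of the higher and 17 of the lower genes, and the median log2 fold change of all genes tested was -0.003. In all 339 the 3 libraries of one group lay above the 3 of the other, which was so for 3082 genes (21.9%) whether called or not, 12.2% with OVA above and 9.65% with OVA below. Without higher-dose replicate 1, 303 of 14418 genes were called (2.1%), 255 higher (1.77%) and 48 lower (0.333%), and 255 of them were among the 339. All 339 kept their direction there, but as none of them overlapped between the groups, leaving out 1 library could hardly turn a sign. Tspoap1 alone fell by over 1.5 times in log2 fold change, from 4.92 to 2.34, with 61.2, 5.44 and 2.22 CPM in the higher-dose libraries. It was at 1.21, 0.53 and 0.525 CPM in OT-I saline. In the OT-II libraries it was at 104, 172 and 193 CPM with saline and 130 and 182 with higher-dose OVA (before TMM scaling). The part of CD4 T cell RNA in it was not tested beyond leaving replicate 1 out.

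Each other library mattered more to the count than replicate 1. Leaving out saline replicate 1, 2 or 3 gave 99, 73 or 83 called genes, and leaving out higher-dose replicate 2 or 3 gave 75 or 163. Of the 77 called genes that the naming rule picked, 23 kept their call in all 14 other settings, among them Zbtb32, Nrp1, Klrk1, Slamf7, Tbx21, Ikzf3, Irf4, Myb, Cxcr3, Cxcr5, Itgb1, Cd44, Pdcd1, Lag3, Ctla4 and Mki67. The other 54 lost it in at least 1. No called gene changed sign, which their lack of overlap made all but certain where libraries were left out. Beside the single libraries named with each gene, the fit without the 3 OT-I libraries with raised markers of other cells (replicate 1 of both groups here and molar-equivalent OVA replicate 2) also ended the calls of Gzmk, Gzma, Gzmm, Ifng, Il2, Klrc1, Cd160, Gpr183, Ccr9, Itgae, Ccnb2, E2f2, Igfbp4, Il7r, Pfkp, Fdft1, Sox13, Itga4, Itgax, Cd28, Icos, Pmepa1, Rgmb, Tle1, Bcl2a1d and Tspoap1. RNA of the whole pool was measured, so fewer cells expressing a gene and less RNA per cell cannot be told apart in any of these values.

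**Figure D2:**
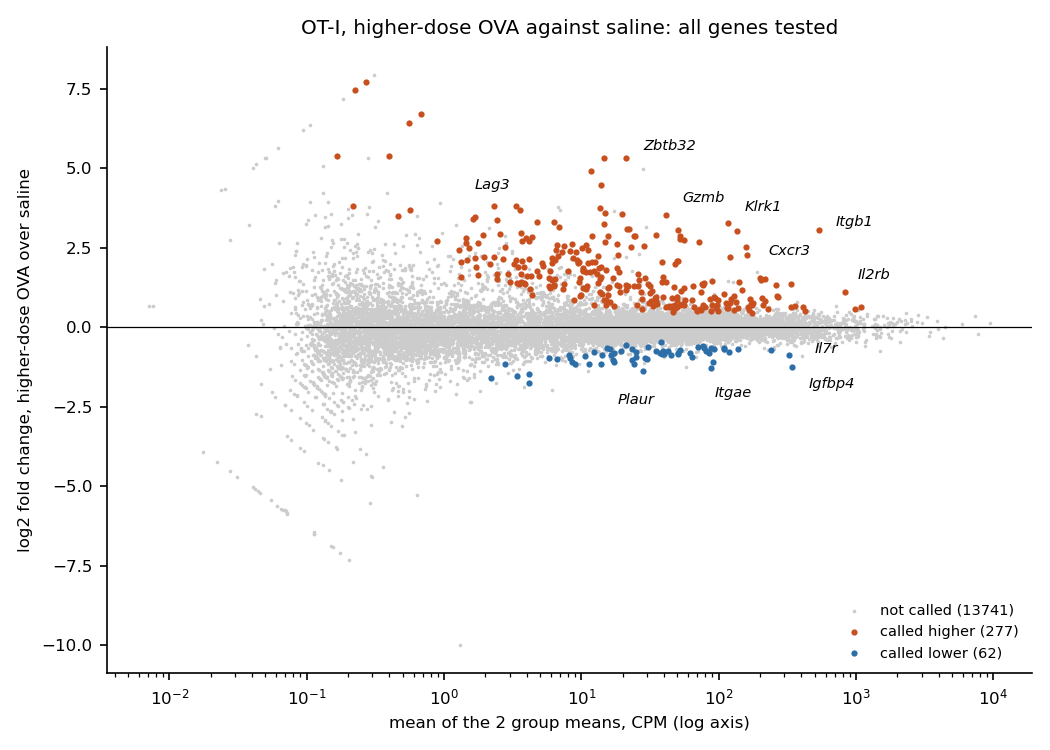
Log2 fold change of higher-dose OVA over saline (vertical) against the mean of the group means in CPM (log axis) for the 14080 genes tested in OT-I cells, with called genes coloured. The 277 genes called higher reach larger fold changes than the 62 called lower, whose lowest value is -1.77 (Tspan9).

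Genes of cytotoxic granules were higher with OVA in part. Of 23 tested members of that list 6 rose (26.1%) and none fell (7 without higher-dose replicate 1), and the median log2 fold change was 0.35. Over all genes tested 1.97% were called higher and 0.44% lower. Each list count against saline below is to be read beside these shares. Gzmb, the granzyme B gene, was at 46.8, 139 and 42.3 CPM with higher-dose OVA and at 7.51, 6.69 and 5.34 with saline. The groups did not overlap, and replicate 2 was well above the other higher-dose libraries (log2 fold change 3.54 ± 0.60 SE, adjusted p = 0.00996). Gzmk, a granzyme of less differentiated effector cells, was at 12.6, 56.3 and 17 CPM against 0.925, 0.573 and 0.634 (5.33 ± 1.02, adjusted p = 0.0164). Gzma, the granzyme A gene, was at 46.8, 188 and 38.5 against 11.5, 10.5 and 10.5 (3.08 ± 0.65, adjusted p = 0.0258). Replicate 2 was again the highest library for both. Gzmm rose from 10, 7.03 and 8.93 to 19.1, 45 and 23 CPM, and Serpinb6b, a serpin of the family that inhibits granule proteases, rose by 1.42 ± 0.26 on the log2 scale (lost without saline replicate 2 or 3 or higher-dose replicate 2, adjusted p up to 0.0759).

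Perforin was not called. Prf1, which encodes the pore-forming protein of the granule, was at 96.9, 153 and 162 CPM with OVA and at 148, 152 and 164 with saline (-0.17 ± 0.18, adjusted p = 0.82). Nkg7, a granule membrane protein, was at 0.35 ± 0.21 (adjusted p = 0.58). The granzyme calls leaned on single libraries. Gzmb lost its call without saline replicate 2 or 3 and without the 3 raised-marker libraries, and Gzmk, Gzma and Gzmm lost theirs without any saline replicate or without higher-dose replicate 2, with adjusted p up to 0.0678, 0.104, 0.133 and 0.135. Gzmb had 2.76 without higher-dose replicate 2, and Gzma 1.97 in its lowest setting. Without those 3 libraries, 3 granule genes were higher.

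Among secreted signals 2 of 14 tested genes were higher, Ifng and Il2, and none was lower. Ifng, the interferon gamma gene, was at 6.85, 9.72 and 12.7 CPM against 1.82, 3.15 and 2.16 (2.04 ± 0.43, adjusted p = 0.0255), and 22.6% of its sequence words also occur in Gm49751. Il2 was near the floor in saline, at 0.141, 0.0573 and 0.0181 CPM, and at 1.05, 0.638 and 0.85 with OVA (adjusted p = 0.0385). Both calls were lost in several settings (adjusted p up to 0.127 and 0.18), also without any 1 saline library. The chemokines differed among themselves. Ccl5 was at 189, 482 and 215 CPM against 87.5, 96.3 and 79.1, without overlap but not called (1.75 ± 0.46, adjusted p = 0.0776). Xcl1 was at 12.4, 10 and 14.6 against 15.8, 9.51 and 10.5, with overlapping groups (0.05 ± 0.31, adjusted p = 0.98), and Ccl4 was at 0.19 ± 0.33 (adjusted p = 0.91).

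NK-type receptors, which CD8 T cells acquire after activation, gave 4 higher and no lower gene of 22 tested (5 higher without replicate 1, median 0.42). Klrk1, which encodes the stress-ligand receptor NKG2D, was at 130, 296 and 208 CPM with OVA and at 20, 18.8 and 26.4 with saline (3.28 ± 0.49, adjusted p = 0.00514). The lowest OVA library was several times above the highest saline library. Slamf7, a receptor of activated lymphocytes, was at 69.5, 128 and 94.4 against 15.9, 15 and 12.5 (2.75 ± 0.35, adjusted p = 0.0028). Klrc1, which encodes the inhibitory receptor NKG2A, was at 51.3, 151 and 73.3 against 11.4, 10.5 and 15.9 (2.87 ± 0.51), but 53.1% of its words are shared, mostly with Klrc2, so it is uncertain. The fourth was Cd160, at 93.9, 159 and 110 against 71.5, 53.4 and 61.9 (0.95 ± 0.22, adjusted p = 0.0377). Klrk1 and Slamf7 kept their calls in all settings, while Klrc1 and Cd160 lost theirs without any saline library (adjusted p up to 0.0759 and 0.213).

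Klrg1, a marker of terminal effector cells, stayed low at 2.99, 8.44 and 2.16 CPM against 1.1, 1.19 and 1.67 (1.78 ± 0.50, adjusted p = 0.0975). Markers that define NK cells were low and overlapped or were lower with OVA. Ncr1 was at 1.62, 0.729 and 1.82 CPM with OVA and at 1.05, 1.45 and 1.23 with saline, and Klrb1c was at 1.99 to 4.01 against 3.64 to 5.72. The whole NK cell list summed to 2260 to 3480 CPM against 2190 to 2380. Of its 19 tested genes 5 were called higher, Klrk1, Gzma, Gzmb, Eomes and Itga2, which all stand on other lists here, and the part of NK cell RNA in them was not tested.

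Transcription factors that promote effector fate gave 6 higher genes of 24 and none lower (5 without replicate 1, median 0.36). Tbx21, which encodes T-bet, was at 133, 250 and 208 CPM with OVA and at 39.4, 39.7 and 48.7 with saline (2.21 ± 0.32, adjusted p = 0.00447). Eomes, the other T-box factor of CD8 cells, was at 83.6, 161 and 122 against 59.1, 72.3 and 62.9, a smaller difference (0.92 ± 0.20, adjusted p = 0.0262). Neither gene overlapped between the groups, but Eomes lost its call without any saline library and without higher-dose replicate 2 or 3 (adjusted p up to 0.168). Ikzf3, the Aiolos gene, was at 151, 242 and 221 against 73.7, 76.3 and 77.3 (1.43 ± 0.16, adjusted p = 0.00137). Irf4, whose level follows the strength of receptor signals, was at 21, 23.3 and 33.8 against 10.5, 11.7 and 9.15 (1.32 ± 0.18). Prdm1 (1.21 ± 0.56, adjusted p = 0.41), Zeb2 (1.08 ± 0.57, adjusted p = 0.5) and Id2 (0.14 ± 0.17, adjusted p = 0.85), which act in terminal effector cells, did not pass.

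Of 21 tested genes on the list of resting and memory factors 3 were higher, Zbtb32, Myb and Eomes, and none was lower, with a median of 0.14. The list name does not describe all 3: Zbtb32 was low in saline, and Eomes is also given above with the effector factors. The groups did not overlap in 7 of the 21 that were higher and 4 that were lower with OVA. For all genes tested these shares were 12.2% and 9.65%. Zbtb32, a repressor that restrains T cell expansion, had, with Gzmk, the highest fold change of the named genes, at 26.1, 40.1 and 58.3 CPM against 1.68, 0.472 and 0.942 (5.33 ± 0.76, adjusted p = 0.00447). Myb, a factor of dividing and stem-like lymphocytes, was nearly the same in the 3 OVA libraries, at 76.5, 79.2 and 72.9 CPM, against 15.4, 21.9 and 20.2 with saline. Its adjusted p of 0.00117 was the lowest of the named genes (1.99 ± 0.19). Tcf7, which keeps T cells able to renew, was at 1860, 1740 and 1730 CPM against 1560, 1630 and 1650 (0.14 ± 0.10, adjusted p = 0.68), and Lef1 was at 585, 551 and 600 against 697, 719 and 750 (-0.32 ± 0.11, adjusted p = 0.22). On GRCm38 Tbx21 lies at chr11:97098071-97115331 on the minus strand and Zbtb32 at chr7:30589681-30598909, also minus.

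Chemokine receptors changed in both directions. Of 18 tested receptors of inflamed tissue, follicles and barriers, 4 were higher and 2 lower (3 and 1 without replicate 1, where the median went from 0.38 to 0.00). Cxcr3, which guides T cells to interferon-induced chemokines, was at 202, 299 and 301 CPM with OVA and at 56.7, 52.2 and 57 with saline (2.27 ± 0.25, adjusted p = 0.00137). Cxcr5, the receptor that leads cells to B cell follicles, was at 65.5, 90.2 and 85.3 against 15.7, 20.8 and 20.5 (2.08 ± 0.22, adjusted p = 0.00137). The 3 saline values of each of these receptors were close together, and the OVA libraries lay above them without overlap. Gpr183, the oxysterol receptor, rose by 0.53 ± 0.12 and lost its call without any library of either group (adjusted p up to 0.213). Ccr2 was at 12.6, 54.6 and 17.3 against 9.34, 4.18 and 5.04 and was not called (2.19 ± 0.63, adjusted p = 0.1).

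Ccr9, the receptor for the chemokine of the small intestine, was at 53, 48.4 and 73.6 CPM against 114, 137 and 122 (-1.09 ± 0.18, adjusted p = 0.00703, lost without higher-dose replicate 2 and without the 3 raised-marker libraries, adjusted p up to 0.0649). Itgae, which encodes CD103, the integrin chain that binds E-cadherin on epithelium, was at 45.4, 36.1 and 72.1 against 136, 110 and 128 (-1.28 ± 0.23, adjusted p = 0.012). Its call was lost without saline replicate 1 or 3, higher-dose replicate 2 or the 3 raised-marker libraries (adjusted p up to 0.12). The second receptor called lower was Cxcr6, named here after its values were seen (-0.73 ± 0.15, adjusted p = 0.0203, and 0.0619 without higher-dose replicate 1). Of 11 genes of lymph node homing and retention 2 were higher, Gpr183 and Itga4, and none lower (1 and 0 without higher-dose replicate 1). Ccr7, the receptor for lymph node chemokines, was at -0.45 ± 0.19 (adjusted p = 0.32) and S1pr1, the exit receptor, at -0.14 ± 0.13 (adjusted p = 0.8).

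Adhesion and cytoskeleton genes of antigen-experienced cells were higher in number. Of 32 tested, 9 were higher and 1, Itgae, was lower, with a median of 0.60. Itgb1, the integrin beta 1 chain that pairs with many alpha chains, was at 547, 917 and 1430 CPM with OVA and at 120, 108 and 117 with saline (3.07 ± 0.33, adjusted p = 0.00137). Its partner chains Itga4 (262, 378 and 328 against 95.2, 118 and 122) and Itga2 (5.89, 16.8 and 15.7 against 3.23, 2.06 and 1.16) were higher too, by 1.53 ± 0.26 and 2.57 ± 0.49. Anxa2, a membrane-linked annexin, was at 168, 360 and 280 against 56.3, 38.1 and 45.2 (2.53 ± 0.34). Cd44, the classical marker of antigen experience, was at 95.8, 126 and 120 against 48.9, 42.3 and 38.2 (1.40 ± 0.22, adjusted p = 0.0065). Groups did not overlap for any of these 5 genes. Itga4 and Itga2 lost their calls without saline replicate 2 or higher-dose replicate 2, among others (adjusted p up to 0.0562 and 0.0878), and the other 3 kept theirs. Itgax, the CD11c gene, which activated CD8 cells can express beside dendritic cells, was at 12.6, 44.5 and 18.9 against 2.81, 1.35 and 1.45 (3.76 ± 0.74), a call lost without any saline library or higher-dose replicate 2 (adjusted p up to 0.116). It was the only called gene of the 27 tested in the myeloid list, whose sum ran from 325 to 435 CPM against 313 to 708, and its part from other cells was not tested. Without the 3 libraries with raised markers 4 genes of the adhesion list were higher.

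**Figure D3:**
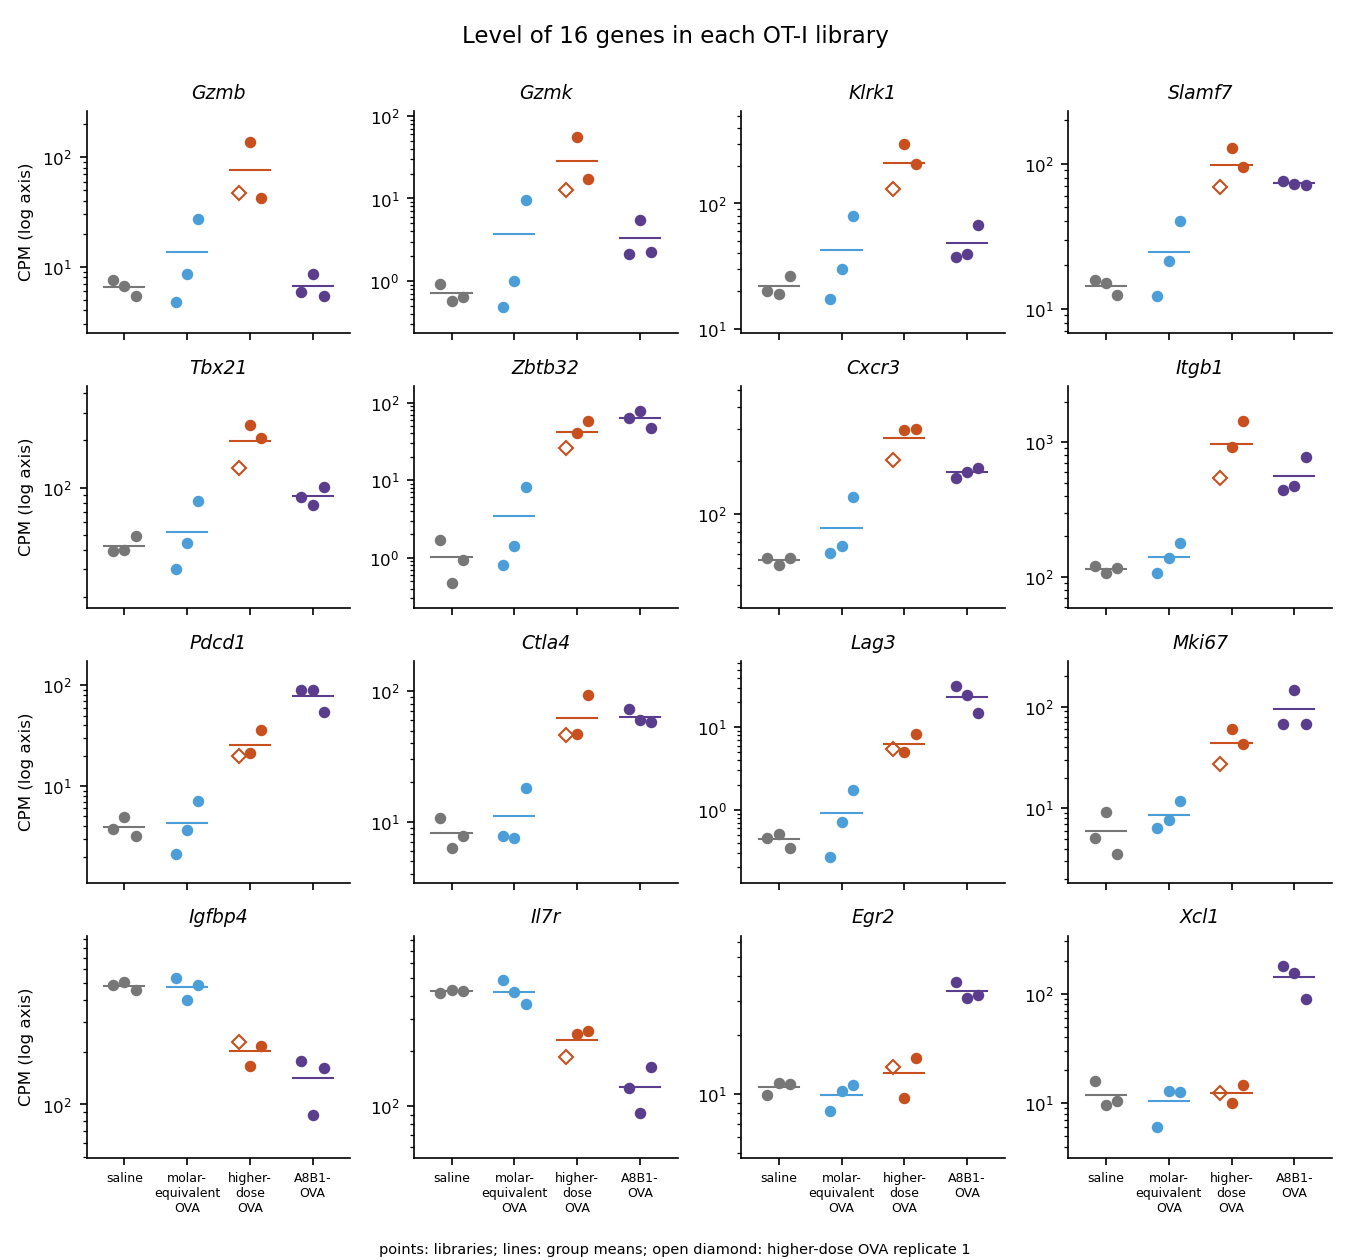
CPM (log axes) of 16 genes in each of the 12 OT-I libraries, by treatment; points are libraries, lines group means, and the open diamond is higher-dose OVA replicate 1. From Gzmb to Mki67 the 3 higher-dose libraries lie above all saline libraries, Igfbp4 and Il7r lie below them, and Egr2 and Xcl1 overlap with saline.

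Inhibitory receptors gave 5 higher genes of 19 and none lower, with a median of 0.95 (5 and 0.58 without replicate 1). Lag3, which binds MHC class II, was at 5.4, 5.07 and 8.2 CPM with OVA and at 0.454, 0.515 and 0.344 with saline (3.81 ± 0.53, adjusted p = 0.00418). Ctla4, the competitor of Cd28, was at 46.2, 47.3 and 93.1 against 10.7, 6.24 and 7.7 (2.92 ± 0.37, adjusted p = 0.0028). Pdcd1, the PD-1 gene, was at 19.9, 21.5 and 35.7 against 3.75, 4.92 and 3.21 (2.69 ± 0.39, adjusted p = 0.00447). All 3 were several times above saline in each library, and replicate 3 was the highest. Cd200 was at 27.6, 17.6 and 17.7 against 5.91, 5.86 and 5.58 (1.86 ± 0.29), and Cd160 is given above. Not called were Tigit (1.21 ± 0.40, adjusted p = 0.18) and Havcr2, the TIM-3 gene (2.25 ± 0.90, adjusted p = 0.3), both under 10 CPM in every one of the 6 libraries.

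Of 30 genes associated with anergy 9 were higher and none lower, with a median of 0.29. Besides Lag3, Ctla4, Pdcd1, Cd200 and Zbtb32 they include Nrp1, the neuropilin gene, at 21.9, 25.8 and 61.1 CPM against 3.2, 2.85 and 3.12 (3.57 ± 0.40, adjusted p = 0.00158). Izumo1r, the folate receptor 4 gene, was at 63.7, 22.6 and 41.2 against 7.62, 4.87 and 4.98 (2.87 ± 0.40). Izumo1r was highest in replicate 1, the library with Cd4 RNA, and it and Ctla4 are also on the CD4 lineage list, whose sums are given above; the part of CD4 T cell RNA in these genes was not tested beyond leaving that library out. Without that library Izumo1r was at 2.45 (adjusted p = 0.00642) and Ctla4 at 3.10 (adjusted p = 0.00332). Cd200 lost its call in the fit without all raised-marker libraries alone (adjusted p = 0.0572), where 7 of the anergy genes and 3 of the inhibitory receptors stayed called higher. Other members of the list did not pass: Egr2 was at 13.7, 9.57 and 15.2 CPM against 9.84, 11.4 and 11.2 (0.25 ± 0.19, adjusted p = 0.71), and Nt5e, the CD73 gene, at -0.69 ± 0.29 (adjusted p = 0.34).

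Of 30 early targets of the T cell receptor 2 were called, Irf4 and Icos, both higher, and the median was -0.03 (2 and -0.20 without higher-dose replicate 1). The groups did not overlap in 3 of the 30 that were higher and 5 that were lower with OVA. Over all genes tested these shares were 12.2% and 9.65%. Nr4a1, the orphan receptor induced within hours, was at 148, 86.9 and 110 CPM with OVA and at 95.8, 68 and 113 with saline (0.32 ± 0.22, adjusted p = 0.67). Tnfrsf9, the 4-1BB gene, was at 44.9, 29.2 and 26 against 38.9, 26.4 and 25.6 (0.14 ± 0.22, adjusted p = 0.9), and Cd69 at 281, 269 and 278 against 313, 309 and 363 (-0.25 ± 0.17, adjusted p = 0.66). Icos, a co-stimulatory receptor, rose by 0.56 ± 0.13 and lost its call in 8 settings, each saline replicate among them (adjusted p up to 0.183). It is also on the CD4 lineage list. Its call was kept without higher-dose replicate 1, and the part of CD4 T cell RNA in it was not tested further.

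Mitosis genes gave the most calls of any list: 20 of 39 were higher, none lower, and the median log2 fold change was 1.86, against 1.97% higher and a median of -0.003 over all genes tested. Without replicate 1 there were 21, and the median was 2.10. Mki67, the proliferation marker Ki-67, was at 27.5, 59.9 and 43.2 CPM with OVA and at 5.05, 9.19 and 3.57 with saline (2.87 ± 0.42, adjusted p = 0.00501). Ccnb2, a mitotic cyclin, was at 24.4, 65.1 and 29.4 against 5.02, 4.9 and 3.89 (3.10 ± 0.57, adjusted p = 0.0133). Bub1, a spindle checkpoint kinase, was at 3.56, 5.56 and 5.13 against 0.893, 0.673 and 0.924 (2.52 ± 0.39, adjusted p = 0.00583). The OVA libraries lay above saline in each, with replicate 2 highest. Mki67 kept its call in all settings, Bub1 in all but the fit with both cell types (adjusted p = 0.297), and Ccnb2 lost it without any saline library or higher-dose replicate 2 (adjusted p up to 0.0808). Without the 3 raised-marker libraries 6 mitosis genes were called.

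DNA replication genes gave fewer calls. Of 35 S phase genes 5 were higher and none lower (6 without replicate 1), with a median of 0.49. The list leaned higher beyond its calls, with 32 of 35 above 0. The groups did not overlap in 17 higher and 1 lower, against 12.2% and 9.65% of all genes tested. At an unadjusted p under 0.05 (edgeR) 13 were higher and 1 lower. DESeq2 called 8 higher, and 2 were called higher without the 3 raised-marker libraries. Rrm2, a subunit of the enzyme that makes deoxynucleotides, was at 57.7, 124 and 63.7 CPM against 20.4, 19 and 17.8 (2.10 ± 0.36, adjusted p = 0.01), and 12.8% of its words are shared with other genes. E2f2, an activating E2F factor, was at 25.3, 36.4 and 23.7 against 9.09, 5.53 and 8.64 (1.88 ± 0.34, adjusted p = 0.0122). Both lost their calls without saline replicate 2 or 3 or higher-dose replicate 2 (adjusted p up to 0.0678 and 0.0759). Mcm2, a helicase subunit named here after its values were seen, was among the few members not above 0 (-0.02 ± 0.19) and was not called.

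Mitotic genes are known to share promoter elements, the CCAAT box bound by NF-Y and the CHR element bound by the DREAM and MuvB complexes, so the promoters of 3 genes described above are printed. Each is the 250 bases before the RefSeq start on GRCm38.p6, in the direction of the gene, with both elements in capitals wherever they occur on either strand. The CCAAT box was searched as CCAAT and the CHR element as TTTGAA, each also as its reverse complement. All 3 genes lie on the minus strand, Ccnb2 at chr9:70421555-70421804, Mki67 at chr7:135716380-135716629 and Bub1 at chr2:127831860-127832109.
Ccnb2: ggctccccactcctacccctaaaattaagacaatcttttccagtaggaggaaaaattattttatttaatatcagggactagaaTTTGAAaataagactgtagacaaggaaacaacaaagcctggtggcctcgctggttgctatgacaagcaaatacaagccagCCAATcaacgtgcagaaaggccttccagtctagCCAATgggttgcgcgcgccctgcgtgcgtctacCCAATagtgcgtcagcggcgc
Mki67: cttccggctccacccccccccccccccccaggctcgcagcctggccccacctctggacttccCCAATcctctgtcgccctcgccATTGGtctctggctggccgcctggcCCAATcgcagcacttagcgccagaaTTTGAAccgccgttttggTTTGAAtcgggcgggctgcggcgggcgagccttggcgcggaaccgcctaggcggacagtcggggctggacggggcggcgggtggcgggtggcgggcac
Bub1: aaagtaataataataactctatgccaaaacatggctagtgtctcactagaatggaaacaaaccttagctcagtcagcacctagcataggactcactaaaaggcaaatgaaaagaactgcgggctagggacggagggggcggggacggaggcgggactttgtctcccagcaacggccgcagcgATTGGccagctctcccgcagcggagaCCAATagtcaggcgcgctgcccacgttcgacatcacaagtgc
The Ccnb2 window holds 4 sites, Mki67 5 and Bub1 2. Ccnb2 and Mki67 hold each element, while the Bub1 sites are CCAAT boxes only, without TTTGAA. Of the 39 mitosis genes 32 have a window, and 26 of these hold CCAAT (81.2%) against 36.7% of the 11005 tested genes with a window and 34.5% of all 27025 windows. TTTGAA was in 14 of the 32 (43.8%), against 11.7% and 16.3%. In 29 windows of S phase genes the shares were 58.6% for CCAAT and 10.3% for TTTGAA. The 219 windows of all genes called higher held CCAAT in 37.4% and TTTGAA in 18.3%. The shares of the mitosis list cover its members whether called or not. Cdk1 and Cdc20, which were not called, hold each element, as Mki67 and Ccnb2 do. Nusap1 and Birc5, called higher, hold neither. A match is a description of the letters in these windows. The shares, and whether the elements follow the calls, were not tested.

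**Figure D4:**
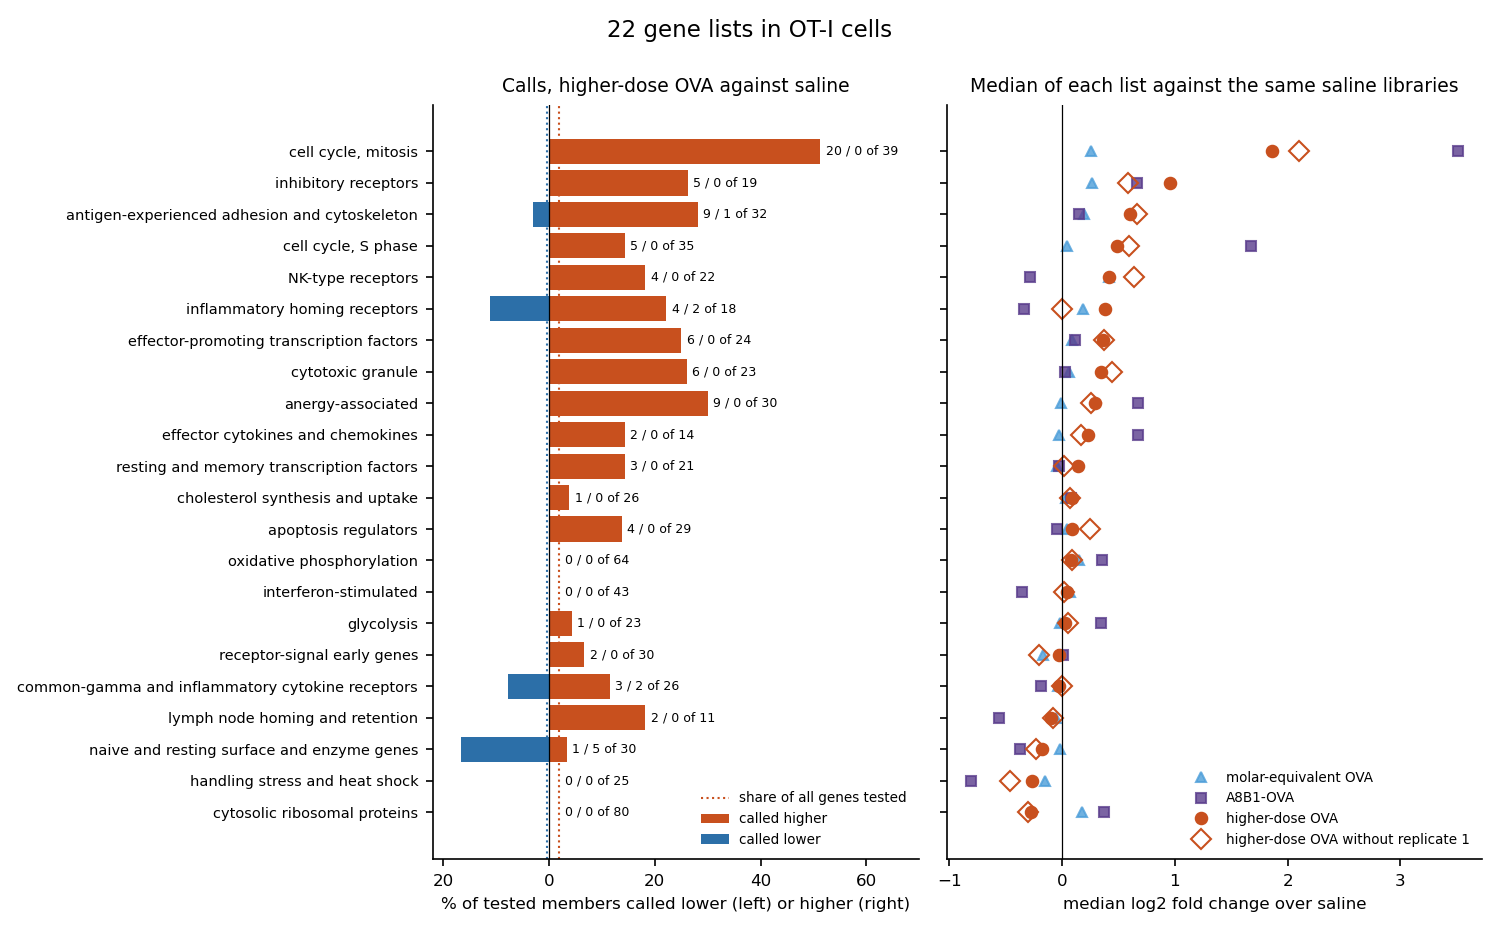
Left, percent of tested members of 22 gene lists called lower or higher in higher-dose OVA against saline, with counts (higher / lower of tested) and dotted lines at the share of all genes tested (1.97% and 0.44%). Right, median log2 fold change over the same saline libraries for 3 treatments and for higher-dose OVA without replicate 1; mitosis has the highest median of the higher-dose group, 1.86, and cytosolic ribosomal proteins the lowest, -0.27.

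Genes of the naive and resting surface made up part of the lower side. Of 30 tested, 5 were lower and 1 higher (3 and 1 without replicate 1), with a median of -0.18, against 0.44% lower over all genes. Igfbp4, a binding protein of insulin-like growth factors that marks naive T cells, was at 230, 166 and 217 CPM with OVA and at 490, 505 and 454 with saline (-1.24 ± 0.23, adjusted p = 0.0133). Il7r, the IL-7 receptor chain that resting T cells need, was at 186, 247 and 256 against 411, 431 and 424 (-0.88 ± 0.20, adjusted p = 0.0346). The groups were well apart in both, yet Il7r lost its call without any 1 of the 6 libraries (adjusted p up to 0.237; 0.114 without higher-dose replicate 1), and Igfbp4 without any saline library or higher-dose replicate 2 (adjusted p up to 0.0766). Treml2 was at 20.1, 17.6 and 14.3 against 26.9, 41.6 and 30.1 (-0.92 ± 0.19), a call lost without saline replicate 2 or 3 or higher-dose replicate 2 or 3 (adjusted p up to 0.12). Cd28, the co-stimulatory receptor, went the other way, from 152, 146 and 172 to 305, 282 and 247 CPM (0.83 ± 0.13, adjusted p = 0.00638, and 0.0587 at most).

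Genes outside that list were lower too. Plaur, the urokinase receptor, was at 16.5, 15.3 and 15 CPM against 45.7, 27.9 and 46.9 (-1.36 ± 0.22, adjusted p = 0.00766), and it lost the call in the fit without the 3 raised-marker libraries alone (adjusted p = 0.0774). Pmepa1, a gene induced by TGF-beta that restrains its signal, was at 8.5, 8.78 and 8.81 against 20.6, 19.5 and 17.8 (-1.15 ± 0.20, adjusted p = 0.0115). Rgmb, a BMP co-receptor, was at 17.4, 12.9 and 16 against 34.5, 28.4 and 30.7, and Tle1, a co-repressor, at 21.3, 15.2 and 22.4 against 41.3, 35.7 and 37.7. Every value with OVA was under every value with saline, which the rule that named these genes required and which held for 9.65% of all genes tested. Pmepa1, Rgmb and Tle1 lost their calls without saline replicate 1 or 2 or higher-dose replicate 2, among others (adjusted p up to 0.066, 0.0897 and 0.129). Beside these, markers of gamma-delta and innate-like T cells gave 2 lower genes of 6 tested (1 without higher-dose replicate 1). Sox13, a factor of gamma-delta T cells, was at 3.64, 3.92 and 4.37 CPM against 8.07, 7.77 and 7.32 (-0.96 ± 0.22, adjusted p = 0.0399), and it lost its call without any 1 of the 6 libraries (adjusted p up to 0.159, and 0.707 in the fit with both cell types). That list summed to 18.5 to 29.7 CPM with OVA and to 43.7 to 59.3 with saline, and its part in the lower genes was not tested.

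Cytokine receptors split. Of 26 tested, 3 were higher and 2 lower, with a median of -0.03 (4 and 1 without higher-dose replicate 1). Il2rb, the beta chain shared by the IL-2 and IL-15 receptors, was at 739, 1430 and 1240 CPM against 515, 530 and 532 (1.11 ± 0.19, adjusted p = 0.00996), and Il10ra was at 68.6, 131 and 125 against 44.7, 37.9 and 43.5 (1.37 ± 0.24). Both were lowest in replicate 1 of the OVA libraries, still above saline. Il2ra, the high-affinity chain, was at 13.3, 2.61 and 2.64 against 4.72, 4.4 and 4.62, so its sign turned from 0.43 to -0.80 without replicate 1, and it was not called in either fit. Ifngr2, a chain of the interferon gamma receptor, was at 48.2, 27.3 and 33.6 against 71.4, 57.5 and 65.6 (-0.83 ± 0.17, adjusted p = 0.0249). Il2rb, Il10ra and Ifngr2 lost their calls without saline replicate 2 or 3 or higher-dose replicate 2 (adjusted p up to 0.0609, 0.0698 and 0.117).

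Of 29 regulators of apoptosis 4 were higher and none lower. Bcl2l1, which encodes the survival protein Bcl-xL, was at 45.6, 56.3 and 54.6 CPM against 20.9, 31.4 and 27.8 (0.97 ± 0.16, adjusted p = 0.00805, and 0.0572 without higher-dose replicate 2). Bcl2a1b and Bcl2a1d were also called, but over 88% of their words are shared within that gene family. Bcl2 was at 183, 145 and 185 against 250, 291 and 308, without overlap and not called (-0.73 ± 0.20, adjusted p = 0.093).

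Metabolic and housekeeping lists gave few calls. Glycolysis gave 1 higher gene of 23 (4.35%) and cholesterol synthesis 1 of 26 (3.85%), against 1.97% of all genes tested. These were Pfkp (0.64 ± 0.14, adjusted p = 0.0298) and Fdft1 (0.57 ± 0.13, adjusted p = 0.0327, and 0 of 26 without higher-dose replicate 1). Each lost its call without any saline replicate (adjusted p up to 0.17 and 0.225). In edgeR 0 of 43 interferon-stimulated genes were called, with 2 at an unadjusted p under 0.05 and 0 by DESeq2. For oxidative phosphorylation these counts were 0 of 64, 0 and 0, and for cytosolic ribosomal proteins 0 of 80, 2 and 0, with a median of -0.27. The ribosomal list leaned lower without calls, with only 3 of the 80 above 0 in log2 fold change. Summed ribosomal protein CPM was 38700, 39000 and 30200 with OVA and 46800, 50200 and 36800 with saline, so the groups overlapped. Heat shock and handling genes gave 0 of 25 by edgeR, 1 at an unadjusted p under 0.05 and 0 by DESeq2. Only 3 of the 25 had a log2 fold change above 0, and the median was -0.26 (-0.46 without higher-dose replicate 1), with sums of 9610 to 15400 CPM against 13500 to 15800.

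A direct test against molar-equivalent OVA shows where the larger amount differed from the smaller one. Higher-dose OVA differed in 146 of 14080 genes (1.04%), 118 higher (0.838%) and 28 lower (0.199%). Molar-equivalent OVA against saline gave 0 called genes by edgeR, with 266 at an unadjusted p under 0.05 and 1 by DESeq2. Both comparisons include molar-equivalent replicate 2, which had raised markers of other cells. Its B cell list summed to 3350 CPM against 182 and 737 in replicates 1 and 3, and its myeloid list to 1320 against 292 and 462. It also had the lowest OT-I total, 26.6 M counts. The part of other cells in the differences was not tested. Nrp1, at 2.54, 6.4 and 2.96 CPM with molar-equivalent OVA, was higher by 3.22 ± 0.40 with the higher dose (adjusted p = 0.00741), and Itgb1, at 108, 139 and 178, by 2.77 ± 0.32 (adjusted p = 0.0054). Pdcd1, at 2.13, 3.68 and 7.14, was higher by 2.58 ± 0.39 (adjusted p = 0.0137), and Cxcr3, at 60.8, 66.5 and 125, by 1.67 ± 0.24 (adjusted p = 0.0115). Igfbp4 was lower by 1.22 ± 0.23 on the log2 scale, and Slpi, a protease inhibitor, was at 12.1, 9.72 and 11.6 against 20.5, 40.9 and 25.5 (-1.38 ± 0.27, adjusted p = 0.0332). The 40.9 was in molar-equivalent replicate 2. For Gzmb the difference of 2.50 ± 0.58 did not pass (adjusted p = 0.0605): molar-equivalent replicate 3 held 27.3 CPM, against 4.72 and 8.5 in replicates 1 and 2. The list counts were 8 higher of 30 anergy genes, 6 of 39 mitosis genes and 1 of 23 granule genes, with none lower. The count of 146 depended on which libraries were fitted: with these 6 libraries alone 2 genes were called. Without molar-equivalent replicate 1, 2 or 3 there were 13, 149 or 153, and without higher-dose replicate 2 or 3 there were 14 or 28. Of the 149 without molar-equivalent replicate 2, 88 were among the 146.

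Set against A8B1-OVA, higher-dose OVA differed in 339 genes (2.41%), of which 109 were higher (0.774%) and 230 lower (1.63%) with free OVA. A8B1-OVA against the same saline libraries gave 1620 (11.5%), 996 higher (7.07%) and 624 lower (4.43%). Genes of effector cells lay on both sides. Granule genes gave 4 higher and 0 lower of 23, and NK-type receptors 3 higher and 1 lower of 22. Effector-promoting transcription factors gave 4 higher and 1 lower of 24. Secreted signals gave 2 higher and 3 lower of 14, with a median of -0.18, and Tnfsf14 was among the lower (-1.455 ± 0.227, adjusted p = 0.00958). Single genes called higher are given next. Osbpl3 was at 13.4, 41.2 and 25.4 CPM with higher-dose OVA and at 2.82, 4.71 and 5.01 with A8B1-OVA (2.67 ± 0.49, adjusted p = 0.0187). Klrk1 was higher by 2.14 ± 0.47 (37.4, 39.4 and 67.2 CPM with A8B1-OVA, adjusted p = 0.0385) and Itgax by 4.17 ± 0.76 (adjusted p = 0.0182). Klrg1 (2.81 ± 0.53), Prdm1 (3.05 ± 0.61) and Ccr2 (3.48 ± 0.67), none of which passed against saline, were called higher here (adjusted p = 0.0199, 0.0252 and 0.0234). In these 3 genes every A8B1-OVA library was under every saline library: Prdm1 was at 0.865, 0.473 and 0.718 CPM there, against 4.4, 1.69 and 1.25 with saline.

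Cell cycle genes were lower with higher-dose than with A8B1-OVA. The mitosis list gave 15 lower genes of 39 and a median of -1.63, and the S phase list 13 of 35 and -1.03, with none higher in either. Early receptor-signal genes gave 2 higher and 4 lower of 30 (median -0.12), and inhibitory receptors 2 higher and 3 lower of 19 (median -0.04). Cd200 was at 117, 109 and 61.3 CPM with A8B1-OVA (-2.19 ± 0.29, adjusted p = 0.00277), Pdcd1 at 89.9, 89.6 and 54.4 (-1.60 ± 0.36, adjusted p = 0.042) and Bcat1, a branched-chain amino acid aminotransferase, at 35.3, 38.8 and 30.2 against 4.66, 3.71 and 5.44 (-2.92 ± 0.39, adjusted p = 0.00313). Nrgn, a calmodulin-binding protein known from neurons, was at 46.2, 46.9 and 9.51 against 0.711, 0.334 and 0.668, the lowest difference of the named genes (-5.89 ± 0.61). Zbtb32 (-0.61 ± 0.61, adjusted p = 0.64), Nrp1 (-0.39 ± 0.36, adjusted p = 0.6), Irf4 (-0.53 ± 0.18, adjusted p = 0.14), Myb (-0.25 ± 0.18, adjusted p = 0.49) and Cxcr5 (0.17 ± 0.21, adjusted p = 0.72) did not pass, which does not show that they were equal. This count moved from 38 without A8B1-OVA replicate 2 to 1487 without its replicate 3, and it was 106 without its replicate 1, 109, 108 or 67 without higher-dose replicate 1, 2 or 3, and 210 with these 6 libraries alone.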

How the data were processed

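OT-I RNA was measured by poly(A) RNA-seq of cDNA made from sorted cells. The deposited table holds estimated counts per gene for 21900 genes, made by the authors with bcl2fastq and kallisto 0.46.1 against GRCm38, per the submitters' processing notes. The values are whole numbers as deposited. The annotation release, the step from transcripts to genes and the use of strand were not given in the sources used here, so genes that share sequence are uncertain.

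The 12 OT-I libraries (4 groups of 3) were fitted together with edgeR 4.0.16 in R 4.3.3 (TMM scaling, filterByExpr, count at least 10 and total at least 15, quasi-likelihood test, Benjamini-Hochberg adjusted p under 0.05 over the 14080 genes kept). All adjusted p-values are from this fit or its named alternatives. The ± values are standard errors, taken as the log2 fold change over the square root of F. On simulated counts for 13884 genes of this comparison, 49% of genes changed 2-fold and 67% of those changed 4-fold were recovered, and 3.45% of calls were false. These counts were drawn gene by gene from a shared mean profile, without RNA of other cells in single libraries. The simulated share of false calls therefore does not carry over to the genes called here.

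Named genes were the 12 highest and 12 lowest called genes whose libraries did not overlap and averaged 10 CPM or more, up to 4 members of each list by adjusted p, a fixed panel, and lineage markers. For the other comparisons the 6 highest and 6 lowest were added. The comparison, the lists and the panel were chosen with earlier results of these data known. Shared sequence was counted in words of 31 bases of the GENCODE M21 transcripts. Alternatives were DESeq2 1.42.0, other scaling, no filter, only the 6 libraries compared, a replicate block, a joint fit with OT-II libraries, and leaving libraries out. Results for some genes are not reported here.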

Additional observations from a re-analysis of the deposited data

How the results depend on the processing

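For higher-dose OVA against saline, 339 genes became 332 with RLE size factors, 320 without the low-count filter, 383 in a joint fit with OT-II libraries and 331 with counts thinned to the lowest total, an alternative chosen after seeing the data. DESeq2 gave 712 (512 higher and 200 lower, 71.9% higher against 81.7%) and the 6 libraries alone 583 (415 higher and 168 lower, 71.2% higher). Without the libraries with raised markers of other cells 128 were called. Leaving out 1 library at a time gave 73 to 303 genes against saline, 13 to 153 against molar-equivalent OVA and 38 to 1487 against A8B1-OVA. Against molar-equivalent OVA, 146 became 611 with DESeq2 and 2 with the 6 libraries alone. Against A8B1-OVA, 339 became 1202 and 210. For molar-equivalent OVA against saline, DESeq2 called 1 gene. The cause of these shifts was not tested. Replicate numbers did not pair the libraries (correlations of deviations 0.03, 0.024 and -0.019), and with the replicate block 261, 116 and 297 genes were called. Of the 77 named genes called against saline, 54 lost the call in at least 1 alternative. None reversed, which their lack of overlap between the groups made all but certain where libraries were left out. Of the 91 not called, 21 were called in at least 1. Higher-dose libraries had the lower totals, and pools of 3 mice, 3 per group, limit what can be called.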
